A study of Mus musculus with 31 samples.

Results

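The PI3K-AKT and mTORC1 regulators described here are 10 genes fixed by name: the kinases Akt1 and Akt2, the PI3K inhibitor Pik3ip1, the mTORC1 subunits Mtor and Rptor, the TSC subunits Tsc1 and Tsc2, the stress-induced inhibitors Ddit4 and Sesn2, and the mTORC1 substrate Rps6kb1. They were found by gene symbol and Entrez identifier among the 20704 genes of the ribosome-protected fragment (RPF) table and the 24593 genes of the total RNA table, and all 10 had a row in both. RPFs are the stretches of mRNA that ribosomes shield from nuclease, so that their counts follow ribosomes on the coding sequence, whereas total RNA counts follow the mRNA itself. The ratio of RPF to total RNA is the translational efficiency (TE).

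Signals from growth factor receptors activate PI3K, whose lipid product brings AKT to the membrane, and active AKT phosphorylates and inactivates the TSC complex. TSC is the GTPase-activating protein of Rheb, and Rheb bound to GTP activates mTORC1 on the lysosome, where the kinase, with raptor as its substrate-binding subunit, phosphorylates S6 kinase and the 4E-BPs and so promotes protein synthesis. Stress restrains the same axis: REDD1, the product of Ddit4, acts through TSC, and sestrin 2 binds GATOR2 and reports on leucine. Both are known transcriptional targets of stress pathways, among them the integrated stress response (ISR), in which phosphorylation of eIF2α at serine 51 slows initiation on most mRNAs.

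Every library came from mouse squamous cell carcinoma (SCC) keratinocytes. The labels give their genotype as HRasG12V:TgfbrIIfl/fl, whereas the study's list of cell lines gives both lines as HRasG12V with TgfbrII deleted. In these cells the endogenous Eif2s1 alleles, encoding eIF2α, had been ablated by CRISPR and replaced by a lentiviral, myc-tagged cDNA under the PGK promoter. The cDNA was wild type in S51 cells, which are ISR-competent, and S51A in the ISR-null cells, so the controls carry the replacement too. Cells received vehicle (DMSO) or 100 nM of the proteasome inhibitor bortezomib for 4.5 h according to the labels, and the study's account of the experiment gives a slightly shorter time. The 4 groups are therefore S51 vehicle, S51 bortezomib, S51A vehicle and S51A bortezomib. RPFs were sequenced in 3, 4, 4 and 4 libraries of these groups, and total RNA in 4 of each. Each genotype was represented by single-cell clones that the study pooled by genotype, and the labels do not name the clone of a library, so a difference between genotypes and one between clones cannot be told apart. The labels do not state whether replicates were separate cultures. The study's figure legends call the replicates independent biological ones, while its text on the profiling libraries calls them technical replicates. It does not say what was repeated. The p-values measure the spread between these libraries, and if they are technical replicates the spread between cultures is not covered.

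RPF libraries held 1038826 to 4902237 counts on genes, with the lowest totals in S51 bortezomib, and total RNA libraries 18758668 to 22994713. Values are given as CPM, read counts scaled to a common library size by TMM, so each is relative to the other mRNAs of its library, and a change in the synthesis of all proteins is not seen. All 8 keratinocyte markers were detected in both kinds of library, and their summed RPF level was 25500 to 37400 CPM, while the fibroblast, leukocyte, endothelial and melanocyte lists each summed to at most 9.99 CPM. Summed keratinocyte marker RNA was 13100 to 13800 CPM with vehicle and 15900 to 18500 with bortezomib in S51, 16400 to 16800 and 17300 to 19200 in S51A, and its part in the results was not tested. In these bulk samples fewer cells of a type and less RNA per cell cannot be told apart. Eif2s1, the targeted gene, had 310 ± 7.28 CPM of total RNA in S51 vehicle and 295 ± 6.71 in S51A vehicle (SD, n = 4 each), where reads of the transgene and of the ablated locus are not separated. Its RPF level was 81.2 CPM in replicate 2 of S51 vehicle against 162 and 171 in replicates 1 and 3. In S51A vehicle it was 231 ± 22.5 CPM (SD, n = 4), higher than in S51 vehicle by 0.73 ± 0.17 on the log2 scale (adjusted p = 2.34e-03, edgeR). Replicate 2 of S51 vehicle stands apart, and without it the difference was 0.48 ± 0.10, under the fold limit of 1.5 used for RPF (adjusted p = 2.62e-04, edgeR). Member results that turn on this library are given without it as well.

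Bortezomib moved 5 of the 10 regulators in RPF in S51 cells, with 2 higher and 3 lower, and 3 of them in S51A cells, with 2 higher and 1 lower. Both counts include Pik3ip1, which passed the filter on low counts through its vehicle libraries and had 0 to 2 counts in S51 bortezomib. With 10 counts required in every library, or only the groups compared in the fit, it was not tested and the counts were 4 and 2. Calls required an adjusted p under 0.05 together with a fold of more than 1.5 for RPF and TE, or more than 2 for total RNA. Of the 9457 genes that passed the filter on low counts and were tested in RPF, all 10 regulators among them, 7.38% were called higher and 11.2% lower in S51, and 4.19% higher and 6.67% lower in S51A. The median log2 fold change of the 10 regulators was 0.07 in each genotype, beside 0.00 and -0.01 over all genes tested, with members at either end. The 2 that rose, Ddit4 and Sesn2, rose in both genotypes in RPF and in mRNA, and neither was called in TE. Akt1 and Akt2 fell in RPF in S51 beside total RNA changes of -0.02 and -0.06 on the log2 scale, and the fall on Akt1 was larger in S51 than in S51A cells. Pik3ip1 fell in RPF and mRNA in both genotypes, and Mtor, Tsc1, Tsc2 and Rps6kb1 were called in none of the comparisons.

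**Figure D1:**
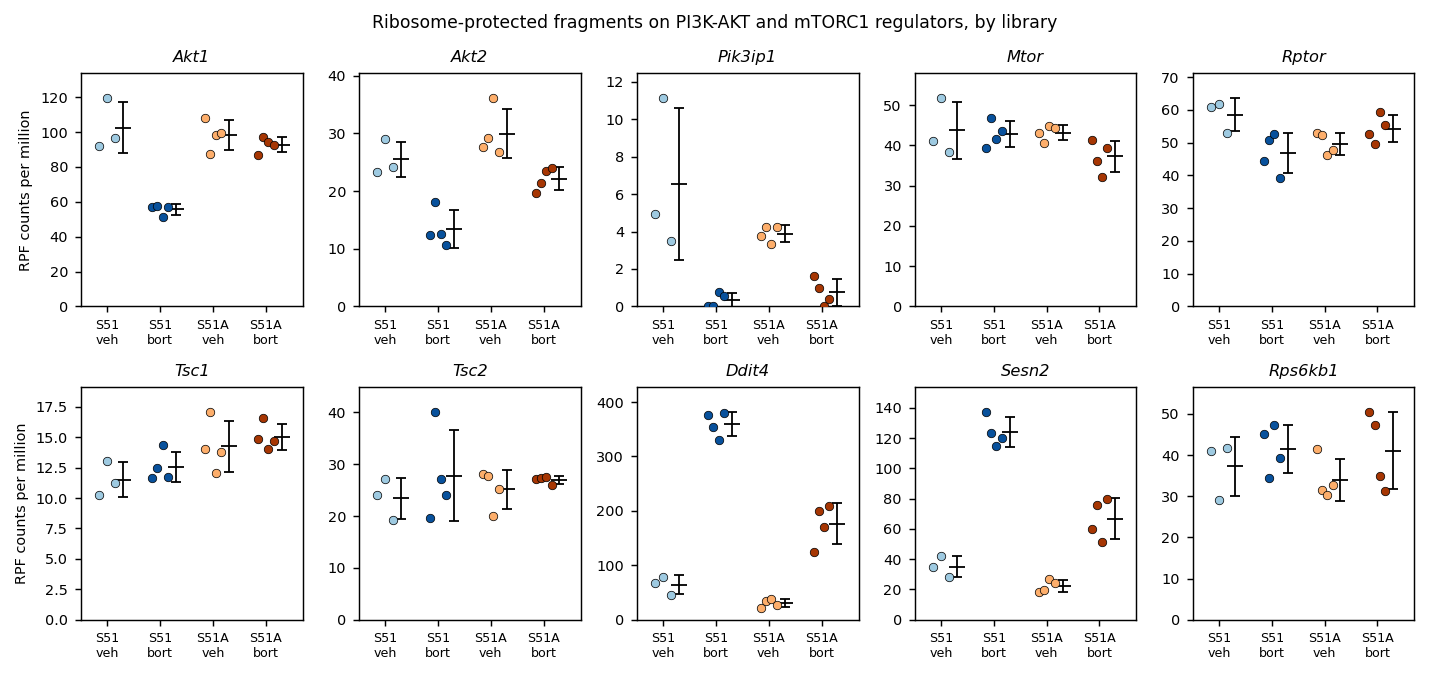
RPF CPM of the 10 regulators in each library of S51 and S51A cells given vehicle (veh) or bortezomib (bort). Points are libraries, and the bar and whiskers beside them are mean ± SD (n = 3 for S51 vehicle, 4 otherwise). On Akt1 the 4 S51 bortezomib libraries sit between 51.1 and 57.4 CPM, below every library of the other groups, and on Ddit4 they sit between 331 and 380 CPM, above every other library.

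Akt1, the AKT isoform tied to growth and survival, carried 91.8, 119 and 96.6 RPF CPM in the 3 S51 vehicle libraries and 56.8, 57.4, 51.1 and 57.1 in the 4 S51 bortezomib libraries. In S51A cells the values were 108, 87.4, 98.4 and 99.6 under vehicle and 86.7, 97.0, 94.1 and 92.8 under bortezomib. The S51 groups did not overlap, whereas the S51A groups did. The log2 fold change was -0.88 ± 0.12 (SE) in S51, with an adjusted p of 4.96e-06 by edgeR's quasi-likelihood test adjusted after Benjamini and Hochberg, and -0.08 ± 0.10 in S51A (adjusted p = 0.618, edgeR). The responses themselves differed, by -0.80 ± 0.15 on the log2 scale (S51 minus S51A, adjusted p = 4.46e-03, edgeR). Akt1 was the 1 regulator called in this difference, where 0.983% of all genes were called lower. Without the S51 vehicle library that stands apart, the difference was -0.70 ± 0.14 (adjusted p = 7.58e-04, edgeR).

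The mRNA of Akt1 did not follow its footprints. Total RNA was 349 ± 15.4 CPM with vehicle and 345 ± 16.1 with bortezomib in S51, and 342 ± 5.93 and 375 ± 12.1 in S51A (SD, n = 4 each), a log2 change of -0.02 ± 0.04 in S51 and 0.13 ± 0.04 in S51A. Divided by replicate number, a pairing that the model does not use, RPF over total RNA was 0.254, 0.335 and 0.274 in S51 vehicle and 0.156, 0.163, 0.153 and 0.173 in S51 bortezomib. These groups did not overlap. In S51A cells the ratio ran from 0.255 to 0.309 under vehicle and from 0.223 to 0.265 under bortezomib, which overlap. In the model over all 31 libraries, TE fell by 0.87 on the log2 scale in S51 (SE 0.11, adjusted p = 2.89e-07, edgeR) and had a change of -0.21 ± 0.09 in S51A (adjusted p = 0.639, edgeR). The difference between these TE responses was -0.65 ± 0.15 (adjusted p = 9.46e-03, edgeR). Without replicate 2 of S51 vehicle it was -0.55 ± 0.13, which is under the fold limit (adjusted p = 9.25e-03, edgeR). The study took RPFs and total RNA from the same lysates. With libraries paired by replicate number in the model, the difference was -0.61 and was not called (adjusted p = 0.0595, edgeR). Over all groups, 12 of 15 RPF libraries were most like the total RNA library of their own number, with 0 of 3 in S51 vehicle.

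Akt2, the isoform best known for insulin-stimulated glucose uptake, had fewer footprints than Akt1 on nearly the same coding length. Its RPF values were 23.4, 29.0 and 24.1 CPM in S51 vehicle and 12.4, 18.2, 12.5 and 10.6 in S51 bortezomib. S51A vehicle had 27.6, 29.1, 36.1 and 26.8 CPM and S51A bortezomib 19.6, 21.4, 23.4 and 24.0. Here neither genotype's groups overlapped. The log2 fold change was -0.96 ± 0.19 in S51 (adjusted p = 5.68e-04, edgeR) and -0.43 ± 0.15 in S51A (adjusted p = 0.0441, edgeR), and the second passed the p threshold but not the fold limit. Their difference was -0.53 ± 0.24 (adjusted p = 0.283, edgeR), so a larger response of Akt2 in S51 was not established. Akt2 mRNA lay between 96.4 and 114 CPM in all 16 libraries.

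The TE of Akt2 fell by 0.90 on the log2 scale in S51 (SE 0.16, adjusted p = 1.58e-04, edgeR), and its ratio of RPF to total RNA was 0.212 to 0.269 under vehicle and 0.108 to 0.170 under bortezomib. In S51A the ratio was 0.277 to 0.352 under vehicle and 0.180 to 0.211 under bortezomib, again without overlap. The TE change there was -0.55 ± 0.12 (adjusted p = 7.12e-03, edgeR), just short of the fold limit, and leaving out replicate 4 of S51A vehicle or of S51A bortezomib brought it past the limit, at -0.61 and -0.60. The TE responses of the genotypes differed by -0.35 ± 0.21 (adjusted p = 0.544, edgeR).

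Together with Rptor, Akt1 and Akt2 made up the 3 regulators called lower in TE in S51, where 4.24% of 9424 genes were called lower. None of the 10 was called in TE in S51A, where 0.987% of genes were called in either direction. In S51A, 3 of 10 had an unadjusted p below 0.05 in TE by edgeR, and DESeq2 called 0. Without the fold limit, 1 of 10 passed the adjusted p there, beside 127 of 9424 genes. Akt1 and Rptor were the 2 called in the difference of TE responses, with 1.08% of genes called lower. Neither was called when libraries were paired by replicate number.

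Rptor encodes raptor, the subunit that presents substrates to mTORC1. Its RPF level was 60.9, 61.9 and 52.8 CPM in S51 vehicle and 44.4, 50.7, 52.6 and 39.2 in S51 bortezomib, while S51A had 46.1 to 52.8 CPM under vehicle and 49.7 to 59.3 under bortezomib. The S51 groups were separated by the gap between 52.6 and 52.8 CPM, and the RPF change of -0.31 ± 0.13 was not called (adjusted p = 0.0634, edgeR). Rptor mRNA went the other way in S51. It was 49.4 to 54.5 CPM under vehicle and 64.3 to 72.6 under bortezomib, a log2 change of 0.36 ± 0.05 that is well under the fold limit for total RNA (adjusted p = 2.74e-07, edgeR). TE therefore fell by 0.66 on the log2 scale in S51 (SE 0.11, adjusted p = 9.56e-05, edgeR), with ratios of 0.983 to 1.19 under vehicle and 0.610 to 0.798 under bortezomib. In S51A, Rptor mRNA rose as well, by 0.16 ± 0.05 (adjusted p = 3.99e-03, edgeR), under the fold limit and without overlap of the groups. The TE change there was -0.04 ± 0.10, with overlapping ratios. The difference between the TE responses of the genotypes was -0.62 ± 0.15 (adjusted p = 0.0251, edgeR). Leaving out replicate 4 of S51 bortezomib took the S51 response to -0.57, under the fold limit, and without replicate 2 of S51 vehicle the difference was -0.58 (adjusted p = 0.0323, edgeR), also under it. Scaled by library size alone, the S51 response was -0.50 (adjusted p = 3.62e-03) and the difference -0.55 (adjusted p = 0.0749, edgeR), and neither was called. With libraries paired by replicate number, the difference was -0.60 and was not called (adjusted p = 0.124, edgeR).

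Mtor, the kinase itself, was called in no comparison. Its RPF values lay between 38.3 and 51.7 CPM with vehicle and 39.3 and 46.9 with bortezomib in S51, and between 40.5 and 44.8 and between 32.2 and 41.2 in S51A, and its mRNA ranged from 37.0 to 44.6 CPM in all 16 libraries. The RPF log2 change was -0.02 ± 0.13 in S51 and -0.20 ± 0.12 in S51A (adjusted p = 0.977 and 0.264, edgeR). The groups overlapped in both genotypes, and the TE of Mtor in S51 changed by -0.08 ± 0.13, beside -0.66 for Rptor in the same libraries.

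**Figure D2:**
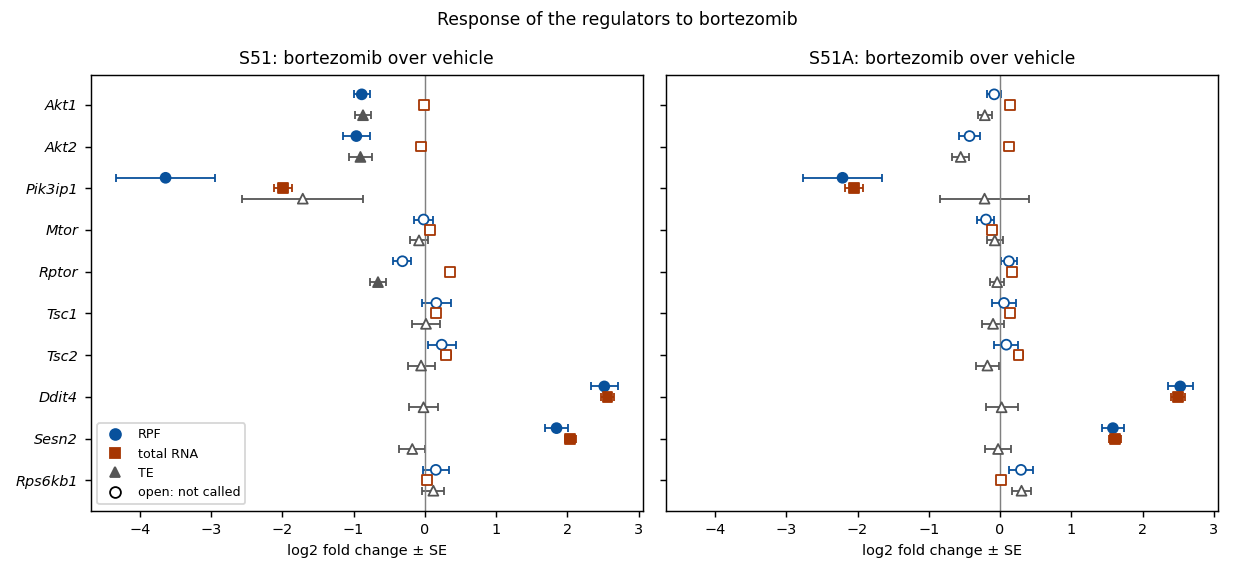
Log2 fold change of bortezomib over vehicle, with SE, for each regulator in S51 (left) and S51A (right), in RPF, total RNA and TE. Filled symbols were called and open ones were not. Akt1 and Akt2 have filled RPF and TE symbols in S51 beside a total RNA change of -0.02 and -0.06, and Ddit4 and Sesn2 have RPF and total RNA symbols close together in both panels.

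**Figure D3:**
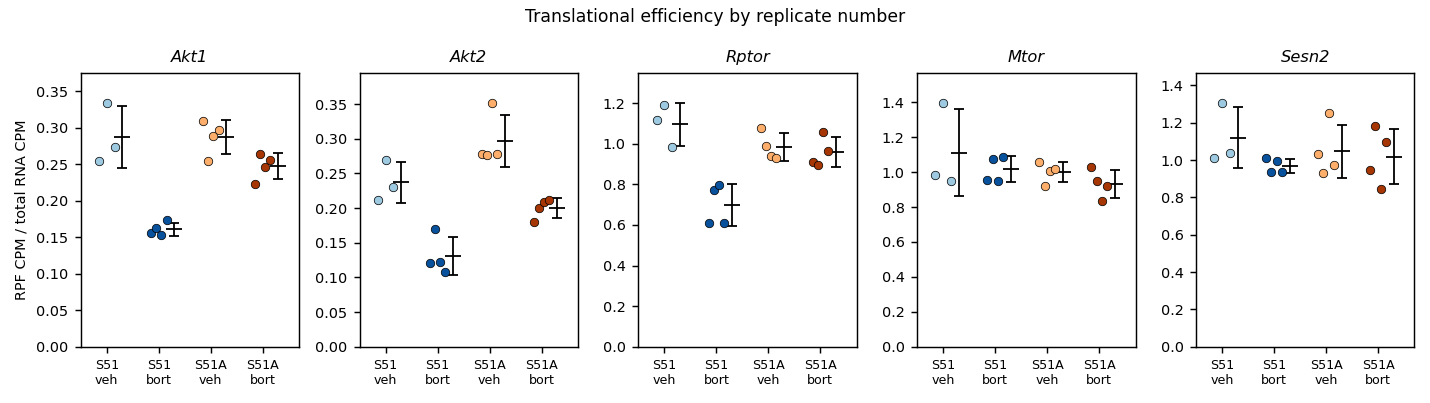
RPF CPM divided by total RNA CPM of the same group and replicate number for Akt1, Akt2, Rptor, Mtor and Sesn2. Points are replicate numbers, and the bar and whiskers are mean ± SD (n = 3 for S51 vehicle, 4 otherwise). The S51 bortezomib points lie below those of S51 vehicle for Akt1, Akt2 and Rptor. For Sesn2 they do so only by the gap between 1.009 and 1.01, and for Mtor the S51 groups overlap.

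Pik3ip1, a transmembrane protein that binds the catalytic subunit of PI3K and restrains it, was the regulator with the fewest footprints. The 3 S51 vehicle libraries held 14, 23 and 14 RPF counts and the 4 S51 bortezomib libraries 0, 0, 2 and 1. In S51A cells there were 8, 20, 8 and 21 counts under vehicle and 5, 2, 0 and 1 under bortezomib. The groups did not overlap in CPM in either genotype, and every S51 bortezomib library was below the floor of 3 counts. Against that floor in each library, the mean RPF level of S51 bortezomib was at least 3.31-fold lower than the 6.52 CPM of S51 vehicle, and at least 2.15-fold lower than the 4.22 CPM left without replicate 2. The fitted log2 change of -3.64 ± 0.70 (adjusted p = 4.42e-04, edgeR) depends on the prior count and is no measure of the size. In S51A the fitted change was -2.21 ± 0.55 (adjusted p = 6.00e-03, edgeR).

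Total RNA measured Pik3ip1 with more counts. Its mRNA was 12.8, 11.8, 10.1 and 11.2 CPM in S51 vehicle and 2.62, 2.84, 2.92 and 3.17 in S51 bortezomib. S51A vehicle had 11.2 to 11.9 CPM and S51A bortezomib 2.38, 1.98, 3.06 and 3.85. It fell by 1.98 on the log2 scale in S51 (SE 0.13, a fold of 3.96) and dropped by 2.04 in S51A (SE 0.13, a fold of 4.13), and neither pair of groups overlapped (adjusted p = 2.19e-12 and 1.97e-12, edgeR). The difference of the responses was 0.06 ± 0.19 (adjusted p = 0.861, edgeR). Its TE change was -1.71 ± 0.85 in S51 and -0.22 ± 0.63 in S51A, neither of them called, and their difference of -1.50 ± 1.15 has an error close to its size.

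Ddit4, whose product REDD1 restrains mTORC1, rose most of the 10. Its RPF level was 68.0, 79.3 and 44.8 CPM in S51 vehicle and 376, 355, 331 and 380 in S51 bortezomib. In S51A it was 22, 34.4, 37.4 and 27.0 under vehicle and 125, 200, 170 and 208 under bortezomib. No groups overlapped, and S51A lay below S51 under either treatment. The RPF log2 fold change was 2.52 ± 0.19 in S51, a fold of 5.73, and 2.53 ± 0.18 in S51A, a fold of 5.77 (adjusted p = 1.09e-09 and 1.07e-09, edgeR), and the difference between them was -0.01 ± 0.23 (adjusted p = 0.991, edgeR). Ddit4 mRNA went from 16.3 ± 2.58 to 96.1 ± 1.29 CPM in S51 and from 9.82 ± 1.67 to 55.5 ± 4.61 in S51A (SD, n = 4 each), log2 changes of 2.56 ± 0.09 and 2.50 ± 0.10 (adjusted p = 9.68e-18 and 1.39e-16, edgeR). The ratio of RPF to total RNA, 3.46 to 4.77 in S51 vehicle and 3.42 to 3.99 in S51 bortezomib, overlapped, and TE changed by -0.02 ± 0.20 in S51 and 0.02 ± 0.23 in S51A.

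Sesn2, the leucine sensor, rose as well. Its RPF level was 34.7, 42.1 and 28.1 CPM in S51 vehicle and 138, 123, 115 and 120 in S51 bortezomib. In S51A it was 18.2, 19.9, 27.0 and 24.1 under vehicle and 60.2, 75.5, 51.5 and 80.1 under bortezomib. The treatment groups were apart in both genotypes. The RPF log2 fold change was 1.85 ± 0.16 in S51 and 1.58 ± 0.16 in S51A (adjusted p = 1.63e-08 and 1.42e-07, edgeR), and the responses differed by 0.26 ± 0.23 (adjusted p = 0.604, edgeR). The mRNA rose from 31.2 ± 3.08 to 128 ± 8.92 CPM in S51 and from 21.3 ± 2.90 to 65.4 ± 5.35 in S51A (SD, n = 4 each), by 2.04 ± 0.08 and 1.61 ± 0.08 on the log2 scale. That difference of mRNA responses, 0.42 ± 0.11, passed the p threshold but not the fold limit (adjusted p = 8.33e-03, edgeR). TE did not pass in either genotype, at -0.18 ± 0.18 and -0.03 ± 0.18.

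In total RNA, Ddit4 and Sesn2 were the 2 regulators called higher and Pik3ip1 the 1 called lower in each genotype. Of the 11708 genes tested, 1.96% were called higher and 3.02% lower in S51, and 1.63% and 2.55% in S51A. No regulator was called in the difference of total RNA responses, where 0.478% of genes were called in either direction. There 5 of 10 had an unadjusted p below 0.05 by edgeR, and DESeq2 called 0. Without the fold limit, 4 of 10 passed the adjusted p in that difference, beside 2526 of 11708 genes. For the responses themselves, 6 of 10 regulators in S51 and 8 of 10 in S51A passed an adjusted p below 0.05 without the fold limit. Over all genes, 7005 of 11708 passed in S51 and 6602 in S51A, so passing the p threshold alone was common.

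Because Ddit4 and Sesn2 moved together, the bases upstream of both genes were searched for the C/EBP-ATF response element, spelled TGATGNAA, on either strand. In the promoter windows of RefSeq (250 bases before to 50 after a start) neither gene had it, and 3.97% of 32851 windows of all genes did. In the 2000 bases upstream of the gene's annotated start, a search added after the results were seen, it was present in 4 of the 10 regulators (Akt2, Tsc2, Ddit4 and Sesn2), beside 25.5% of 20610 genes. The stretches with a match upstream of Ddit4 and Sesn2 are shown 5′ to 3′ in the direction of transcription. For both genes this is the minus strand of GRCm38.p6 (mm10). Matches are in capitals, read on the other strand where they end in CATCA.
Ddit4 at chr10:59952990-59953138: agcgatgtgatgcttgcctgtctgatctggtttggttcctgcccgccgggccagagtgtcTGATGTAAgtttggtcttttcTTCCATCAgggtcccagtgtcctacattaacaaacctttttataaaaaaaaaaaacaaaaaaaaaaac
Ddit4 at chr10:59952818-59952945: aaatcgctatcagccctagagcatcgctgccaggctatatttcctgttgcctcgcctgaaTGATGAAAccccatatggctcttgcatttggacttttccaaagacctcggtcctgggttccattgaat
Sesn2 at chr4:132510693-132510820: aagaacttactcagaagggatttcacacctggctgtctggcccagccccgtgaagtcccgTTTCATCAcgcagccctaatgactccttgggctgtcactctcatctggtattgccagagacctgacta
Sesn2 at chr4:132512110-132512237: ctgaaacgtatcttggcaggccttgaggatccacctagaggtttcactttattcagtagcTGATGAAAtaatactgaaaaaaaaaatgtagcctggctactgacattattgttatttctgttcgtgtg
The matches lay 1308, 1287 and 1115 bases upstream of Ddit4 and 304 and 1721 bases upstream of Sesn2. A match of letters in such a window is a description only, and its part in the responses was not tested. Pik3ip1, which fell in mRNA, had none. Akt2 was called lower in RPF but not in total RNA in S51. It had 1 match in a promoter window, 85 bases before a start, besides its match upstream. The stricter spelling TGATGCAA was upstream of 2 of the 10 regulators, Akt2 and Tsc2, beside 4.95% of genes, and not of Ddit4 or Sesn2. The antioxidant response element core TGACNNNGC was found in the promoter window of Sesn2, at 36 bases before the start, and in 12.4% of all windows. The core of the heat shock element, GAANNTTC, was in no promoter window of the 10 regulators and in 7.86% of all windows. The FOXO motif GTAAACA was in 1 of 14 promoter windows of the regulators and in 3.65% of all windows. That match was in Akt1, 161 bases before a start. In the 2000 bases upstream, GAANNTTC was found in 2 of the 10 regulators, beside 42% of genes. TGACNNNGC was found there in 4 of 10 (47.5% of genes) and GTAAACA in 2 of 10 (24.3%).

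Tsc1 and Tsc2, the subunits of the complex that switches Rheb off, were not called in any comparison. For Tsc1, RPF was 10.3 to 13.1 CPM with vehicle and 11.6 to 14.4 with bortezomib in S51, and 12 to 17.1 and 14 to 16.6 in S51A, so that treated and untreated libraries overlapped. For Tsc2 it was 19.2 to 27.1 and 19.7 to 40.2 CPM in S51, and 19.9 to 28.0 and 25.9 to 27.6 in S51A, also overlapping. The log2 changes in S51 were 0.16 ± 0.20 for Tsc1 and 0.24 ± 0.19 for Tsc2. Tsc2 mRNA had a log2 change of 0.30 ± 0.07 in S51 and 0.26 ± 0.07 in S51A, which passed the p threshold (adjusted p = 8.54e-04 and 2.57e-03, edgeR) at a fold far below 2. Rps6kb1, which encodes S6 kinase 1, had RPF levels of 29.0 to 41.8 CPM with vehicle and 34.4 to 47.3 with bortezomib in S51, and 30.3 to 41.6 and 31.3 to 50.6 in S51A, with overlap in both. Its RPF log2 changes were 0.15 ± 0.18 and 0.29 ± 0.16 (adjusted p = 0.550 and 0.217, edgeR), and its mRNA changed by 0.03 ± 0.04 in S51 and 0.01 ± 0.04 in S51A.

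Between genotypes under vehicle, 2 regulators differed in RPF, both lower in S51A, where 6.62% of genes were called lower. Ddit4 was lower by -1.05 ± 0.20 on the log2 scale, a fold of 2.07, and Sesn2 by -0.62 ± 0.18, a fold of 1.53 (adjusted p = 4.34e-04 and 0.0112, edgeR), and for neither did the libraries of the genotypes overlap. The Sesn2 value rests on single libraries: without replicate 2 of S51 vehicle it was -0.48, and without replicate 1 or replicate 2 of S51A vehicle -0.56 and -0.55, all under the fold limit. Total RNA of Ddit4 and Sesn2 was lower too, by -0.73 ± 0.11 and -0.55 ± 0.09 (adjusted p = 2.49e-06 and 6.49e-06, edgeR), but no regulator passed the fold limit of 2, beside 7.87% of genes called in either direction. By edgeR, 7 of 10 had an unadjusted p below 0.05 there, and DESeq2 called 0. An adjusted p below 0.05 without the fold limit was reached there by 5 of 10, beside 7471 of 11708 genes. None of the 10 was called in TE, beside 0.0849% of genes, with 1 of 10 at an unadjusted p below 0.05 by edgeR and 0 called by DESeq2. Without the fold limit, 0 of 10 passed the adjusted p in TE, beside 10 of 9424 genes.

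Under bortezomib the same pair was higher in S51 than in S51A, where 7.66% of genes were called higher in RPF. Ddit4 differed by 1.04 ± 0.16 and Sesn2 by 0.88 ± 0.14 (adjusted p = 2.99e-05 and 5.78e-05, edgeR). Akt1 and Akt2 were lower in S51, by -0.74 ± 0.11 and -0.76 ± 0.19 (adjusted p = 2.55e-05 and 3.25e-03, edgeR), and 10% of genes were called lower. Groups did not overlap for any of the 4 genes. In total RNA, Sesn2 was higher in S51 by 0.97 ± 0.07, just short of the fold limit, and Ddit4 by 0.79 ± 0.08. None of the 10 was therefore called in total RNA, beside 8.28% of genes called in either direction. By edgeR 8 of 10 had an unadjusted p below 0.05, and DESeq2 called 0. An adjusted p below 0.05 without the fold limit was reached by 8 of 10, beside 7689 of 11708 genes. Leaving out replicate 3 of S51 bortezomib or replicate 4 of S51A bortezomib brought the Sesn2 value past the limit, at 1.01 and 1.03. In TE, Akt1 and Akt2 were called lower in S51, by -0.63 ± 0.11 and -0.66 ± 0.16 (adjusted p = 1.25e-04 and 8.97e-03, edgeR), among 2.53% of genes. Without replicate 3 of S51 bortezomib both fell under the limits for a call, at -0.57 (adjusted p = 1.74e-03) and -0.63 (adjusted p = 0.0509, edgeR), and without replicate 4 of that group Akt2 did too, at -0.57 (adjusted p = 0.0573, edgeR). Scaled by library size alone, neither was called, at -0.53 and -0.56 (adjusted p = 2.20e-03 and 0.0304, edgeR). The bortezomib and vehicle comparisons between genotypes share their libraries with the responses above and are not separate support for them.

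Levels can be set side by side per length. Divided by the coding sequence in kilobases, less the first 15 and last 5 codons that the RPF counts leave out, the RPF level in S51 vehicle was 102 ± 27.9 CPM per kb for Ddit4 and 72.9 ± 10.5 for Akt1 (SD, n = 3). Sesn2 at 25.3 ± 5.04, Rps6kb1 at 24.6 ± 4.74 and Akt2 at 18.4 ± 2.20 followed, and the ranges of these 3 overlapped, as did those of Ddit4 and Akt1. Rptor had 14.8 ± 1.27, Pik3ip1 8.87 ± 5.51, Mtor 5.76 ± 0.93, Tsc2 4.35 ± 0.74 and Tsc1 3.36 ± 0.41 CPM per kb, and the range of Pik3ip1 touched those of Rptor, Mtor and Tsc2. In S51 bortezomib the order began with Ddit4 at 572 ± 35.5 and Sesn2 at 89.6 ± 7.02, ahead of Akt1 at 39.5 ± 2.15 CPM per kb (SD, n = 4). In S51A bortezomib Akt1 came second, at 65.9 ± 3.09 CPM per kb between Ddit4 at 279 ± 59.8 and Sesn2 at 48.3 ± 9.61. Under vehicle in S51A, Akt1 at 69.9 ± 5.99 stood above Ddit4 at 47.9 ± 11.1 CPM per kb, and their ranges did not overlap.

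The gene models offer 1 further description. In the RefSeq transcript used for each gene, 6 of the 10 regulators had at least 1 ATG in the 5′ leader before the coding start, in any frame, beside 46.5% of 9442 genes tested in RPF. Akt2 had 7 and Rptor 5, a number of 5 or more that 6.49% of genes reached, while Akt1, Sesn2 and Rps6kb1 had 1 and Tsc1 had 4. Pik3ip1, Mtor, Tsc2 and Ddit4 had none. The 3 regulators that fell in TE in S51 all had such an ATG, and so did 3 that were not called in TE.

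Over the 15 RPF libraries, the log2 CPM of Ddit4 and Sesn2 were most like each other among all genes tested, with a Pearson r of 0.985. Ephx1, an epoxide hydrolase, came second for both, at 0.984 with Ddit4 and 0.972 with Sesn2, and the third genes were Nsfl1c (0.975) and Ubqln1 (0.967), which encode cofactors of p97 and of ubiquitin-dependent degradation. Akt1 was most like Rpsa (0.964) and Rplp1 (0.960), which encode ribosomal proteins, and Eif3k (0.959), which encodes an eIF3 subunit. Akt2 was most like the collagen receptor kinase gene Ddr1 (0.974), Slc25a11 (0.952) and Irf2bpl (0.952), and Pik3ip1 most like Nbeal2 (0.949), Tnrc18 (0.946) and Dusp5 (0.940). Akt1 and Akt2 had an r of 0.878 with each other, and Akt2 and Sesn2 one of -0.836. These correlations are across libraries that share 4 groups and differ in depth, and are given as a description.

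Of the other genes of the pathway, 66 were tested in RPF. In S51 cells bortezomib raised 7 and lowered 8 of them, and in S51A cells it raised 3 and lowered 1. Of all genes tested, 7.38% were called higher and 11.2% lower in S51, and 4.19% and 6.67% in S51A, so the S51 shares of the pathway are near those of all genes. Their median log2 change was -0.04 in S51 and 0.03 in S51A, close to that of all genes. The largest falls in S51 were on Eif4ebp2 (-1.65 ± 0.20), which encodes a 4E-BP, on Pik3r2 (-1.34 ± 0.36), a regulatory subunit of PI3K, on Phlpp1 (-1.21 ± 0.16), a phosphatase of AKT, and on Mapkap1 (-1.10 ± 0.25), which encodes the SIN1 subunit of mTORC2. All 4 were also called lower in TE in S51, among 5 pathway genes that were, the fifth being Rps6. The largest rises in S51 were on Trib3 (1.13 ± 0.17), an inhibitor of AKT, Fnip1 (0.85 ± 0.24), a partner of folliculin, Irs2 (0.84 ± 0.16), an insulin receptor substrate, and Bmt2 (0.71 ± 0.22), which encodes the S-adenosylmethionine sensor SAMTOR. In S51A, Prkab2 (0.92 ± 0.31), an AMPK subunit, Bmt2 (0.69 ± 0.16) and Irs2 (0.67 ± 0.12) rose, and Foxo1 (-0.63 ± 0.19), a transcription factor that AKT inhibits, fell.

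Eif4ebp2 was the 1 pathway gene outside the 10 regulators called in the difference of RPF responses, at -1.45 ± 0.27 (S51 minus S51A, adjusted p = 3.44e-03, edgeR). Its RPF level was 26.9, 35.8 and 29.6 CPM in S51 vehicle and 8.01, 14.3, 9.46 and 8.40 in S51 bortezomib, while S51A had 18.9 to 27.0 CPM under vehicle and 16.1 to 22 under bortezomib. As for Akt1, the S51 groups were apart and the S51A groups overlapped. In total RNA, 3 of 76 pathway genes were called higher and none lower in S51, with 48 of 76 at an adjusted p below 0.05 in either direction by edgeR (23 of 76 lower at an unadjusted p below 0.05, and 5 higher and 0 lower called by DESeq2), and in S51A 1 was higher and 1 lower. Over all genes the shares in total RNA were 1.96% higher and 3.02% lower in S51, and 1.63% and 2.55% in S51A. At the adjusted p alone, 7005 of 11708 genes passed in S51.

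**Figure D4:**
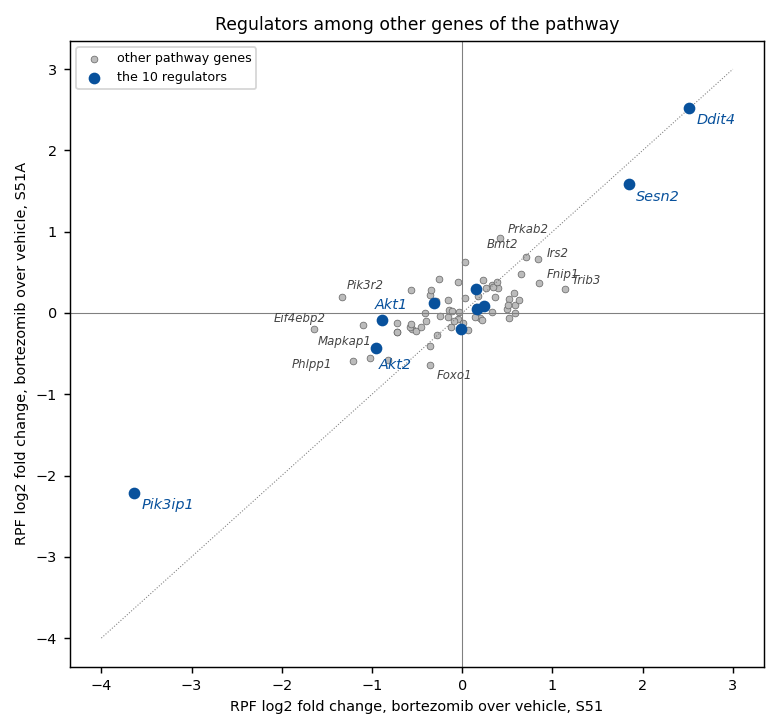
RPF log2 fold change of bortezomib over vehicle in S51 (x axis) and S51A (y axis) for the 10 regulators (blue) and the 66 other pathway genes tested (grey), with equal change on the dotted line. Ddit4 and Sesn2 lie near the line at the upper right, Akt1 lies left of 0 at -0.88 in S51 and near 0 in S51A, and the fitted value of Pik3ip1 rests on libraries with 0 to 2 counts in S51 bortezomib.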

How the data were processed

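RPFs and total RNA of the 4 groups were sequenced in 15 and 16 libraries. The authors deposited raw read counts per gene, as whole numbers without normalization, and per the labels and the methods reads were aligned to mm10 with Bowtie2 and counted with featureCounts or plastid (the sources differ), RPF reads within the coding sequence only. Versions are not given in the sources used here. Columns were assigned to samples by their names and by a remark in the series record that the titles of S51 bortezomib and S51A vehicle were exchanged. Symbols matched 20687 of 20704 and 24569 of 24593 identifiers. Replicates were checked for repeated libraries, and none was found (chi-square per gene of at least 1.64 over 21 RPF pairs and 2.69 over 24 total RNA pairs).

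Counts were scaled by TMM, filtered by filterByExpr (10 counts, total of 15) and fitted with edgeR 4.0.16 in R 4.3.3 (glmQLFit, 1 coefficient per group), with glmQLFTest and Benjamini-Hochberg adjustment across 9457 genes for RPF, 11708 for total RNA and 9424 for TE, the interaction of library kind with group. All 10 regulators were tested in all 3. Scripts were tested on simulated data. SE is the log2 fold change divided by the square root of F. Floors of 3 counts cover counting error only. Depth limits RPF of Pik3ip1, with 0 to 23 counts a library.

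The regulators and the pathway list were chosen with earlier results of these data known. Pathway genes were named by a rule: those called in an RPF response or the difference of responses, at most 4 in each direction by size, and for each regulator called in the S51 RPF response the 3 genes of highest Pearson r of log2 CPM (prior count 2). Rps6 is named outside it, after its value was seen. Alternatives were DESeq2 1.42.0, RLE factors, library sizes alone, other filters, only the groups compared, a replicate block, each library left out, a total RNA fold limit of 1.5, TE from separate fits, and TGATGCAA in place of TGATGNAA.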

Additional observations from a re-analysis of the deposited data

Results flagged for a closer look

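Akt1 RPF in S51 bortezomib was 51.1 CPM in replicate 3, and the other 3 libraries lay between 56.8 and 57.4, so that this library's gap to the next took up 0.902 of the group's range, above Dixon's critical value for 4 samples. It was the 1 such case among 70 groups of 4 libraries examined, where chance gives about 1 in 20.

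The bortezomib responses of S51 and S51A cells differed, in the test of the difference itself (S51 minus S51A, edgeR's quasi-likelihood test adjusted after Benjamini and Hochberg), for Akt1 in RPF by -0.80 (adjusted p = 4.46e-03), for Akt1 in TE by -0.65 (adjusted p = 9.46e-03) and for Rptor in TE by -0.62 (adjusted p = 0.0251). Under the alternatives the Akt1 RPF difference stayed called, whereas both TE differences were lost under some of them. What lies behind these differences was not tested.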

How the results depend on the processing

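The Ddit4, Sesn2, Akt1 and Akt2 responses in RPF kept their direction and call in every alternative in which the gene was tested, and no called value changed sign. Pik3ip1 kept its call where it was tested. It passed the filter on low counts through its vehicle libraries, so this is no separate support for its fall. Scaled by library size alone, 2 members in place of 3 were called in TE in S51 (Rptor was lost), 0 members were called in TE under bortezomib (S51 over S51A) and 1 in the difference of TE responses, where the Rptor value was -0.55 (adjusted p = 0.0749, edgeR). With a total RNA fold limit of 1.5, 1 member (Ddit4) was called between genotypes under vehicle and 2 (Ddit4 and Sesn2) under bortezomib. The share of all genes at that limit is not given, so these counts cannot be set against it. Samples sharing a replicate number did not all deviate together (correlations of -0.158 to 0.261 between RPF groups and 0.00213 to 0.191 between total RNA groups), although 12 of 15 RPF libraries were most like the total RNA library of their own number, with 0 of 3 in S51 vehicle. With the replicate block, 0 members were called in the difference of TE responses (Akt1 -0.61, adjusted p = 0.0595; Rptor -0.60, adjusted p = 0.124, edgeR), and no other count of members called moved.

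Leaving out 1 library at a time gave 4 to 5 members called in RPF in S51, 2 to 3 in S51A and 1 to 2 under vehicle. Pik3ip1 was tested in RPF in 14 alternatives, beside 22 for Akt1. The counts were 0 to 1 in total RNA under bortezomib, 2 to 3 in TE in S51 and 0 to 1 in TE in S51A. They were 0 to 2 in TE under bortezomib and 0 to 2 in the difference of TE responses. The libraries behind most of these, other than the RPF counts in S51 and S51A, are named with the genes. The Rptor TE difference also missed a limit without S51 vehicle replicate 1, S51 bortezomib replicate 4, S51A bortezomib replicate 3 or S51A vehicle replicate 4 (-0.53 to -0.59). The cause was not tested. DESeq2 called 0 members where edgeR called 0. TGATGCAA was in 0 member promoter windows, TGATGNAA in 1 of 14, and within 2000 bases upstream in 4 of 10. Depth limits RPF, where S51 bortezomib libraries held as few as 1038826 counts. The Pik3ip1 bound and the Eif2s1 difference without replicate 2 of S51 vehicle were added after the data were seen.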

Other observations

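Among the 76 other pathway genes tested in total RNA, 3 were higher and 5 lower in S51A than in S51 under vehicle by edgeR, beside 7.87% of all genes called in either direction. The genes named here were chosen after their values were seen. Rragb, which encodes a Rag GTPase, had 19 to 31 total RNA counts in the S51 vehicle libraries and 0 in each S51A vehicle library, at least 8.17-fold lower against a floor of 3 counts per library. Gab1, a docking protein for PI3K, was higher in S51A by 1.85 ± 0.10 and Pik3r1, a regulatory subunit of PI3K, lower by -1.06 ± 0.06 (adjusted p = 3.13e-14 and 3.40e-13, edgeR). Genotype and clone cannot be told apart in these differences.

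Trib3 was the 1 other pathway gene called in the difference of total RNA responses, at 1.14 ± 0.17 (S51 minus S51A, adjusted p = 3.20e-05, edgeR). Its mRNA was 36.0 to 55.0 CPM with vehicle and 93.0 to 117 with bortezomib in S51, without overlap, and 20.1 ± 2.83 and 20.8 ± 3.75 CPM (SD, n = 4 each) in S51A, where the groups overlapped. Rps6, which encodes the ribosomal protein that S6 kinase phosphorylates, fell in TE in both genotypes, by 1.28 on the log2 scale in S51 (SE 0.09) and by 0.94 in S51A (SE 0.09), with adjusted p of 5.10e-13 and 1.46e-09 (edgeR).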
